A study of Mus musculus with 47 samples.

Results

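The genes Mbp, Mog, Mag, Mobp, Cnp, Cldn11, Aspa, Ermn and Opalin encode proteins of myelin and of the oligodendrocytes that make it, and they were chosen by name as a set of 9. All 9 were present once in a count table of 48795 genes, and all 9 were among the 19193 genes with enough counts to be tested. They were measured by RNA sequencing of striatum from 47 mice aged 6 months, of a strain given as C57BL. Genotype defined 6 groups. Of these 3 had no Q140 allele, being wild type, Ccdc82+/- or Ccdc82-/-, and 3 carried Q140 on the same Ccdc82 genotypes. Q140 mice, given in the labels as Het (Q140) KI, are knock-in mice with a copy of Htt that carries an expanded CAG repeat, and the allele models Huntington's disease. Each Q140 group was set against the group with the same Ccdc82 genotype and no Q140 allele. Group size was 8, with 4 mice of each sex, except for 7 mice (3 female, 4 male) with Q140 on Ccdc82-/-. The sources used here do not say how the Ccdc82 allele was made or in which cells it acts, and a knock-in Htt allele is carried by every cell type of the dissected tissue.

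Oligodendrocytes wrap axons in compact myelin, and in the striatum myelinated axons run mostly in bundles that cross a grey matter of medium spiny neurons. The transcription factor gene Sox10 is active throughout the lineage, Myrf is switched on as precursors differentiate, and their products drive the genes of myelin proteins and of myelin lipid synthesis. Mbp encodes myelin basic protein, which holds the inner faces of the membrane together, and Mobp encodes another small basic protein of compact myelin. Mog and Mag encode adhesion proteins of the immunoglobulin family, Mog on the outermost myelin surface and Mag on the membrane next to the axon. Cnp encodes an enzyme that keeps cytoplasm-filled channels in myelin open, and Cldn11 encodes the claudin of the tight junctions between myelin layers. Aspa encodes aspartoacylase, which releases acetate from N-acetylaspartate in oligodendrocytes. Ermn encodes ermin, a cytoskeletal protein of late differentiation, and Opalin encodes a membrane glycoprotein of mature oligodendrocytes.

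Each library held between 41.3 and 61.7 M counts (median 47.7 M). Levels are counts per M counts (CPM) after scaling of the libraries. Ccdc82, the targeted gene, had 10.6 to 12.9 CPM in wild type, 7.7 to 9.19 in Ccdc82+/- and 3.92 to 5.87 in Ccdc82-/- mice, and 10.1 to 12.8, 7.27 to 9.99 and 3.67 to 5.35 CPM in the matching Q140 groups. Markers of choroid plexus, a tissue next to the striatum, were high in Ccdc82-/- male 1 and in wild type male 1. The markers' summed level was 348 CPM in the first and 72.1 in the second, where the group medians lay between 28.6 and 34.7. Female 4 of the Ccdc82+/- group had the highest level of its group for Mbp, Mog, Mobp, Cldn11 and Ermn, each set clearly apart from its neighbour. The wells listed for the libraries were spread unevenly over the groups: 4 of 8 wild type and 0 of 8 Q140 libraries sat in plate column 4. What this plate was used for is not given in the sources used here. Results that change without these libraries or with the plate column in the model are given with both values. In bulk tissue, fewer oligodendrocytes and less of an mRNA per oligodendrocyte cannot be told apart.

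The promoters of members that differed in their response to Q140 are shown first, since the 9 genes did not move as a block. RefSeq start sites on GRCm38.p6 were taken for 8 of the 9 genes, all but Mbp, in 10 windows. Each window reaches from 250 bases before to 50 bases after the start. Printed here are the bases before the start, 5′ to 3′ on the gene's strand, for 2 genes not called in any Q140 comparison (Mog and Cnp) and 3 genes lower in Q140 mice (Mobp, Cldn11 and Aspa). Capitals mark the words CTGGCAC or CTGGTAC, a core bound by Myrf, and the words ACAAAG or ACAATG, a core bound by Sox proteins, on either strand.
Mog (chr17:37023399-37023648, - strand): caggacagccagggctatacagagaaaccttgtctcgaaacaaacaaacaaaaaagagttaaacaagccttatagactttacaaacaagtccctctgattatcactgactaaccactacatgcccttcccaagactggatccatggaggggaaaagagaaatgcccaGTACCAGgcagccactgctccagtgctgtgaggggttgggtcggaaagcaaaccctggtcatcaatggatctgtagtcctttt
Cnp (chr11:100574689-100574938, + strand): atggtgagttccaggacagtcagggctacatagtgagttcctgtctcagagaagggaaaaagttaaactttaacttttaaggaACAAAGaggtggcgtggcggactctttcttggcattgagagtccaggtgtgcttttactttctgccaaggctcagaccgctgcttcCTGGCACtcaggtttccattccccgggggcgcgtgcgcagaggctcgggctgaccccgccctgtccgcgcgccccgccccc
Mobp (chr9:120149492-120149741, + strand): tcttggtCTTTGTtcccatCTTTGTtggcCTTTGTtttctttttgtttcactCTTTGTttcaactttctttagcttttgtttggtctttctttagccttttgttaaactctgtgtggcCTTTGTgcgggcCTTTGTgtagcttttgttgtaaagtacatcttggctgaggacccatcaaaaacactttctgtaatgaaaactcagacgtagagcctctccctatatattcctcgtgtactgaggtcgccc
Cldn11 (chr3:31149670-31149919, + strand): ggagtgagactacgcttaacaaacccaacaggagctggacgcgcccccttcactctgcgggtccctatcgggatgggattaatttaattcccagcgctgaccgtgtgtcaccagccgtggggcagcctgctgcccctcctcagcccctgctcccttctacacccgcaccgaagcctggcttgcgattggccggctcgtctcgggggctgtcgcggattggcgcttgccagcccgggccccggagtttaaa
Aspa (chr11:73324638-73324887, - strand): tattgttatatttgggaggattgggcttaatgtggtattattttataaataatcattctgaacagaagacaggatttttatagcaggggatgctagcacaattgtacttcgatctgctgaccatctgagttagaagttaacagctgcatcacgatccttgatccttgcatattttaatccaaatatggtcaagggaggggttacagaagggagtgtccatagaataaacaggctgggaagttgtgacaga
A word of the Myrf core was found in windows of 4 members, Mog, Mag, Cnp and Opalin. By window it was in 5 of 10, where overlapping windows of Mag held the same word, against 7.1% of 32851 promoters of the same length. In Mog the word began 83 bases before the start, in Cnp 81 bases before it and in Opalin 36 bases after it. The windows of Mobp, Cldn11, Aspa and Ermn held no such letters. Ermn, like Mog and Cnp, was not called in any Q140 comparison, and Mbp, lower in the averaged one, had no window here. No link between these words and the Q140 response is therefore read from them. A Sox word was found in windows of 5 members, Mag, Mobp, Cnp, Ermn and Opalin. By window it was in 6 of 10, against 28.6% of all promoters. Mobp held 6 Sox words, all in the same direction as CTTTGT, whereas the windows of Mog, Cldn11 and Aspa held none. A match is a description of letters in these windows, and binding was not measured.

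The members spanned a wide range of levels, and their order per length of transcript was the same in all 47 libraries. Levels per length of transcript, as fragments per kilobase per M fragments (FPKM, from the deposited table), allow genes to be compared. Mbp was highest, with 321 to 440 FPKM and a median of 361. Mobp followed at a median of 151, Cnp at 94.5, Cldn11 at 74.6, Mag at 51.0 and Mog at 32.5. Ermn at 22.9, Opalin at 13.0 and Aspa at 3.57 FPKM were the lowest. Each gene was above the next in 47 of 47 libraries. The ranges over all libraries overlapped between Cnp and Cldn11, between Cldn11 and Mag, and between Mog and Ermn. These neighbours thus separate within a library but not always across libraries. The order depends on the division by length. In CPM, which lacks it, the mean of Mag (207.2) was above that of Cldn11 (139.7), and Ermn (83.3) was above Mog (55.86). Raw counts behind these levels ran from 769 for Aspa to 190462 for Mbp, so counting error was small beside the spread between mice. After group and sex were removed, the SD of the log2 level between mice was smallest for Cnp, at 0.096, and largest for Opalin, at 0.17.

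**Figure D1:**
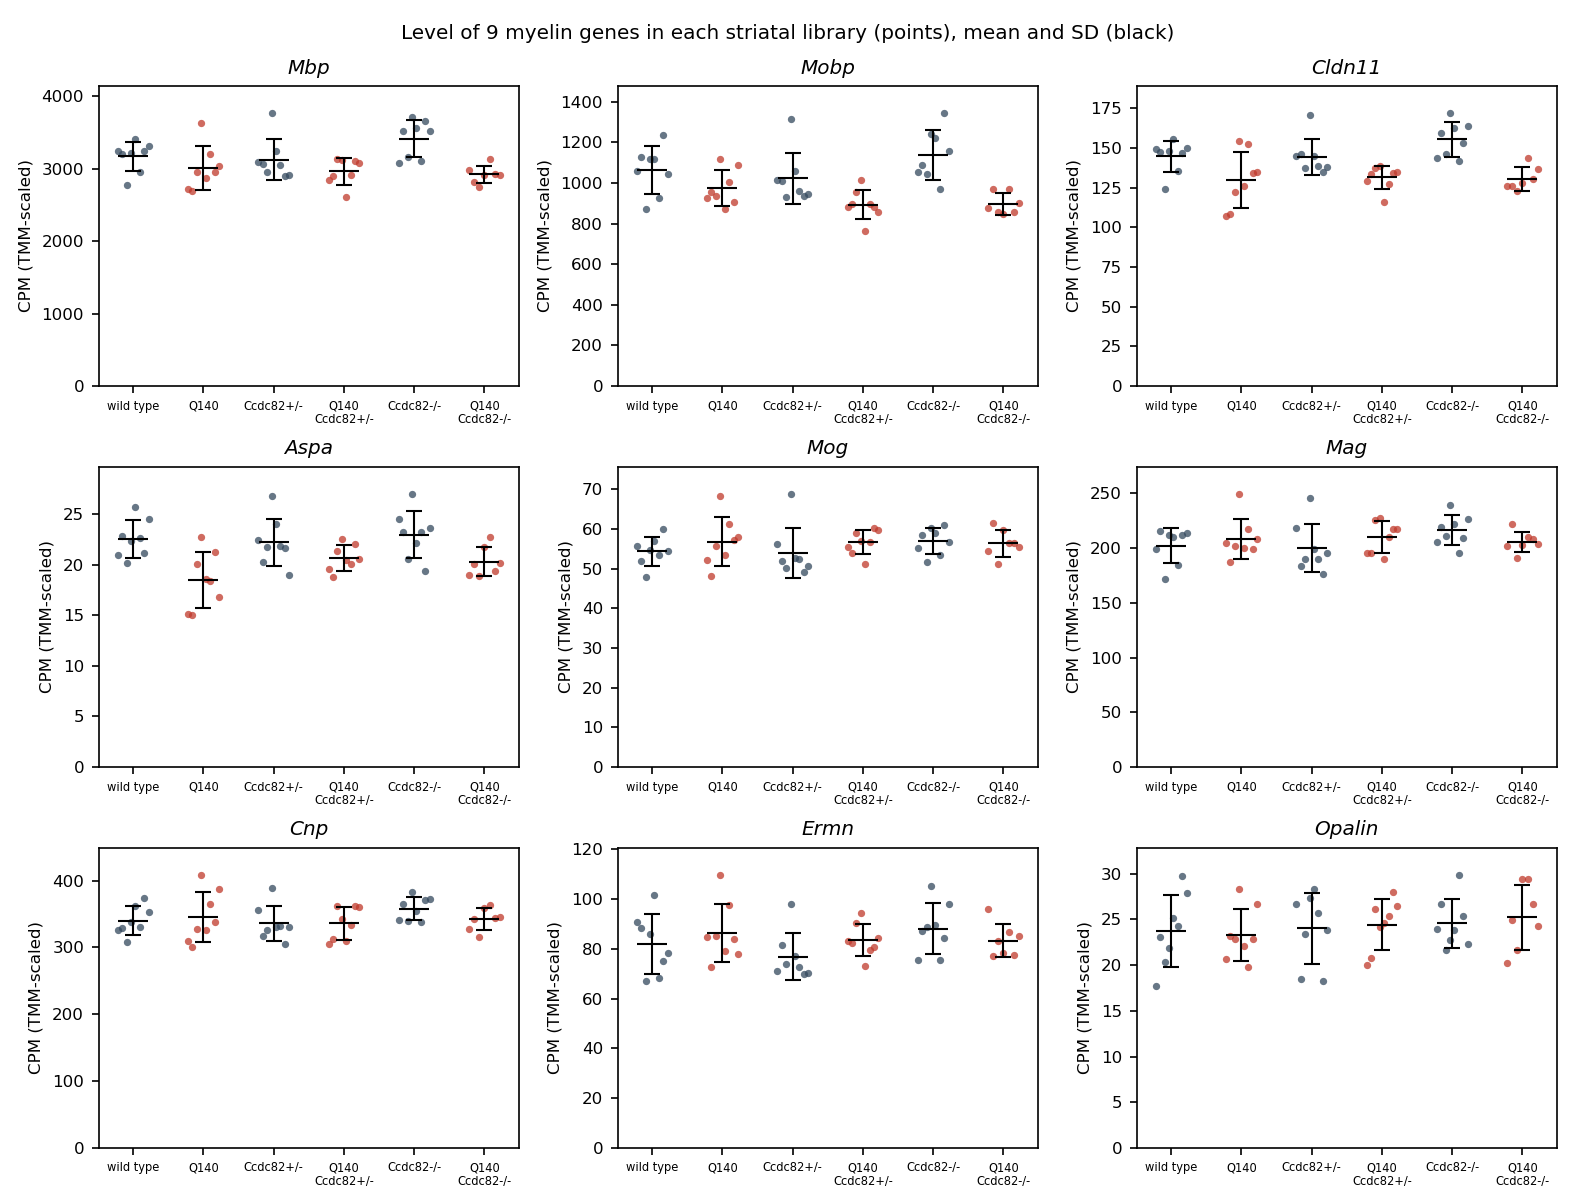
Level of each of the 9 genes in CPM (vertical axis, from 0) in the 47 striatal libraries, by genotype group (horizontal axis); points are libraries (grey without Q140, red with Q140), and black bars are the group mean and SD. In the Ccdc82-/- pair, Mobp runs from 849.2 to 968.9 CPM in Q140 mice and from 970.5 to 1344 CPM in their controls, while the Mog groups overlap in every pair.

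With Q140, 4 of the 9 genes were lower and 0 were higher when the comparison was averaged over the 3 Ccdc82 backgrounds. Mobp fell by 14.2%, Aspa fell by 12.4%, Cldn11 fell by 11.8% and Mbp fell by 8.31%. Mog, Mag, Cnp, Ermn and Opalin did not pass, with differences between -0.996% and 2.86%. Over all genes tested, 54.3% passed in that comparison, 25.5% lower and 28.8% higher. The 4 of 9 members called, all lower, thus stand beside 54.3% of genes in either direction and 25.5% lower, and nothing particular to the set is read from the count. The median log2 difference was -0.014 for the 9 members and 0.0043 for all genes. The split between members that passed and members that did not is described below. Such a split was not compared with other sets of genes. The split and the sizes are relative to the scaling of the libraries, which is taken up after the single backgrounds.

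Mobp (chromosome 9, 120149707 to 120181484, plus strand), the gene of the small basic protein, showed the largest averaged decrease of the set. Gene positions here and below are those of GENCODE M21 on GRCm38, and all 9 are protein-coding genes. Its lowest, median and highest levels were 870.6, 1090 and 1237 CPM in wild type and 870.9, 946.1 and 1119 CPM in Q140 mice. The groups overlapped, 7 of 8 Q140 libraries lay below the wild type median, and the log2 fold change of -0.12 ± 0.070 (SE) did not pass (edgeR adjusted p = 0.174). On the Ccdc82+/- background the levels were 930.4, 986.2 and 1317 CPM without and 764.6, 888.0 and 1016 CPM with Q140. Here 6 of 8 Q140 libraries lay below every control, and Mobp was lower by a log2 fold change of -0.20 ± 0.070 (edgeR adjusted p = 0.0251). That call was lost without Ccdc82+/- female 4 (adjusted p = 0.107), without Q140 Ccdc82+/- male 1 (0.0657) and with the plate column in the model (log2 fold change -0.13, adjusted p = 0.165). On the Ccdc82-/- background the levels were 970.5, 1122 and 1344 CPM without and 849.2, 876.5 and 968.9 CPM with Q140. All 7 Q140 libraries lay below all 8 controls, a log2 fold change of -0.34 ± 0.072 (edgeR adjusted p = 0.000193). Averaged, Mobp stood at -0.22 ± 0.041 with a 95% interval of -0.30 to -0.14 (edgeR adjusted p = 1.1e-05).

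Cldn11 (chromosome 3, 31149920 to 31164324, plus strand), the claudin gene of myelin tight junctions, was lower on the intact and on the Ccdc82-/- background. In wild type its lowest, median and highest levels were 124.2, 148.0 and 155.8 CPM, and in Q140 mice 107.1, 130.1 and 154.3 CPM. The Q140 group spread widely, with 3 of 8 libraries below every wild type library and 2 above the wild type median. The log2 fold change was -0.16 ± 0.059 (edgeR adjusted p = 0.0372), and this call was lost in 10 of 16 fits that left out 1 library, with a highest adjusted p of 0.109 without Q140 female 1. On Ccdc82+/- the levels were 134.8, 141.8 and 170.8 CPM without and 116.0, 134.0 and 138.9 CPM with Q140, and the log2 fold change of -0.14 ± 0.059 did not pass (edgeR adjusted p = 0.0663). All 8 Q140 libraries of that pair lay below the control median. On Ccdc82-/- the levels were 142.0, 156.6 and 172.0 CPM without and 122.8, 127.7 and 143.8 CPM with Q140. There 6 of 7 Q140 libraries lay below every control, a log2 fold change of -0.25 ± 0.061 (edgeR adjusted p = 0.00104). The averaged value was -0.18 ± 0.035 (edgeR adjusted p = 1.7e-05).

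Aspa (chromosome 11, 73304992 to 73329596, minus strand), which encodes aspartoacylase, was the member with the largest difference between Q140 and wild type. The lowest, median and highest levels were 20.11, 22.49 and 25.66 CPM in wild type and 14.99, 18.46 and 22.76 CPM in Q140 mice. Of 8 Q140 libraries 6 lay below every wild type library, and the log2 fold change was -0.29 ± 0.071 (edgeR adjusted p = 0.00111). It passed in every fit that left out 1 of the 16 libraries, with a highest adjusted p of 0.00451. On Ccdc82+/- the levels were 19.0, 21.78 and 26.75 CPM without and 18.82, 20.47 and 22.51 CPM with Q140, with much overlap and no call (log2 fold change -0.10 ± 0.070, edgeR adjusted p = 0.273). On Ccdc82-/- they were 19.38, 23.26 and 26.96 CPM without and 18.91, 20.06 and 22.73 CPM with Q140. That log2 fold change of -0.18 ± 0.073 passed narrowly (edgeR adjusted p = 0.0487), and the call was lost in 11 of 15 fits that left out 1 library, with a highest adjusted p of 0.131 without Ccdc82-/- female 4. Averaged, Aspa stood at -0.19 ± 0.041 (edgeR adjusted p = 0.000104).

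Mbp (chromosome 18, 82475146 to 82585637, plus strand), the most abundant member, was called on a single background. In wild type its lowest, median and highest levels were 2778, 3231 and 3413 CPM, and in Q140 mice 2696, 2959 and 3633 CPM. The log2 fold change was -0.075 ± 0.053 (edgeR adjusted p = 0.291), and Q140 female 4 had the highest value of both groups. On Ccdc82+/- it was -0.075 ± 0.053 as well (edgeR adjusted p = 0.294), with levels of 2905, 3056 and 3767 CPM without and 2608, 2997 and 3132 CPM with Q140. On Ccdc82-/- the levels were 3076, 3525 and 3713 CPM without and 2753, 2918 and 3138 CPM with Q140. There 6 of 7 Q140 libraries lay below every control, a log2 fold change of -0.23 ± 0.055 (edgeR adjusted p = 0.00103). The average over backgrounds was -0.13 ± 0.031 (edgeR adjusted p = 0.000603).

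The other 5 genes did not pass on any background. Mog (chromosome 17, 37010743 to 37023398, minus strand), the adhesion gene of the outer surface, had a median of 54.59 CPM in wild type and 56.42 in Q140 mice, 52.19 and 56.86 CPM on Ccdc82+/-, and 57.61 and 56.36 CPM on Ccdc82-/-. The groups overlapped in each pair, and the log2 fold changes were 0.063 ± 0.057, 0.069 ± 0.057 and -0.014 ± 0.059. Without Ccdc82+/- female 4 the value of Mog on that background passed upward (edgeR adjusted p = 0.0418). Mag (chromosome 7, 30899176 to 30914873, minus strand), the adhesion gene next to the axon, stood at 0.043, 0.071 and -0.068. Cnp (chromosome 11, 100574904 to 100591729, plus strand), the channel enzyme gene, stood at 0.023, 0.00085 and -0.067. Exons of Cnp share 154 bases with Dnajc7, a well expressed gene on the opposite strand, and the strand setting of the counting is not given in the sources used here. Ermn (chromosome 2, 58045113 to 58052864, minus strand) stood at 0.076, 0.12 and -0.073. Opalin (chromosome 19, 41061710 to 41077113, minus strand) stood at -0.018, 0.021 and 0.023, both with wider error than the other members. For these 5 genes the averaged 95% intervals lay within -0.099 to 0.13 on the log2 scale, so decreases of the size seen for Mobp were outside them. By comparison, 34.7% of all genes passed for Q140 against wild type (16.5% lower), 35.0% on Ccdc82+/- (16.7% lower) and 33.2% on Ccdc82-/- (15.7% lower), where 2, 1 and 4 of the 9 members did, all of them lower.

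**Figure D2:**
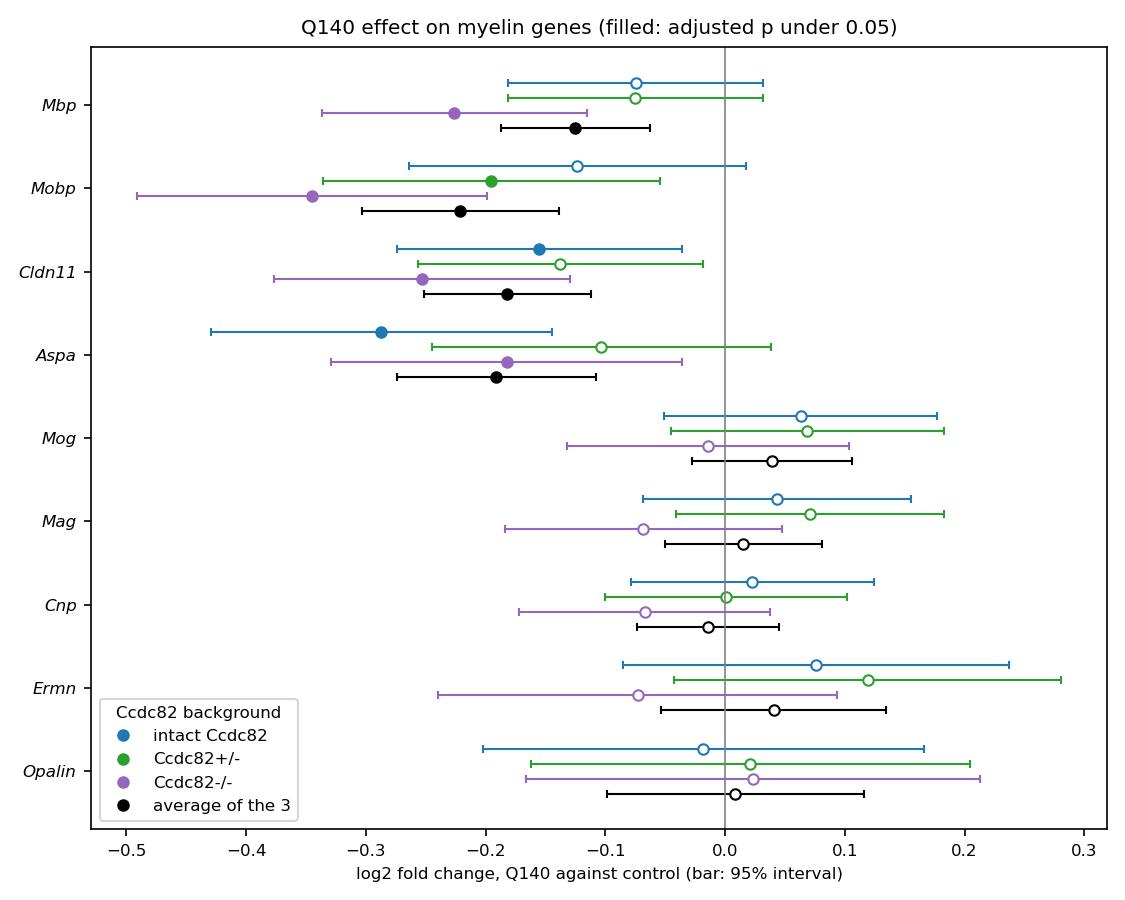
Log2 fold change of Q140 against its control (horizontal axis) for each gene on 3 Ccdc82 backgrounds and averaged (colours), with 95% intervals; filled points passed at an adjusted p under 0.05 over all genes. Mbp, Mobp, Cldn11 and Aspa lie below 0 on all 3 backgrounds, and the averages of Mog, Mag, Cnp, Ermn and Opalin lie between -0.014 and 0.041.

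How the libraries were scaled moved all members together. The main comparison used trimmed-mean scaling, which sets the typical gene close to no change. With total counts as the scale, chosen after the data were seen, every member shifted upward by a similar amount. Mobp, Cldn11 and Aspa then still passed as lower, at averaged log2 fold changes of -0.16, -0.12 and -0.13. Mbp no longer passed, at -0.061 (edgeR adjusted p = 0.0906). Mog at 0.10 (edgeR adjusted p = 0.00663), Mag at 0.080 (0.0373) and Ermn at 0.11 (0.0471) passed as higher, so that 3 members were higher and 3 lower. Cnp changed sign, from -0.014 to 0.050, and passed under neither scale. The deposited FPKM values, as log2(FPKM + 0.1) with low values filtered, gave the same counts of 3 and 3, and there the median over all genes was 0.061. FPKM values are counts over the library total and a constant per gene, so they repeat the total-count scale and are no separate check of it. Scaling with RLE factors left all 4 calls of the main comparison in place.

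**Figure D3:**
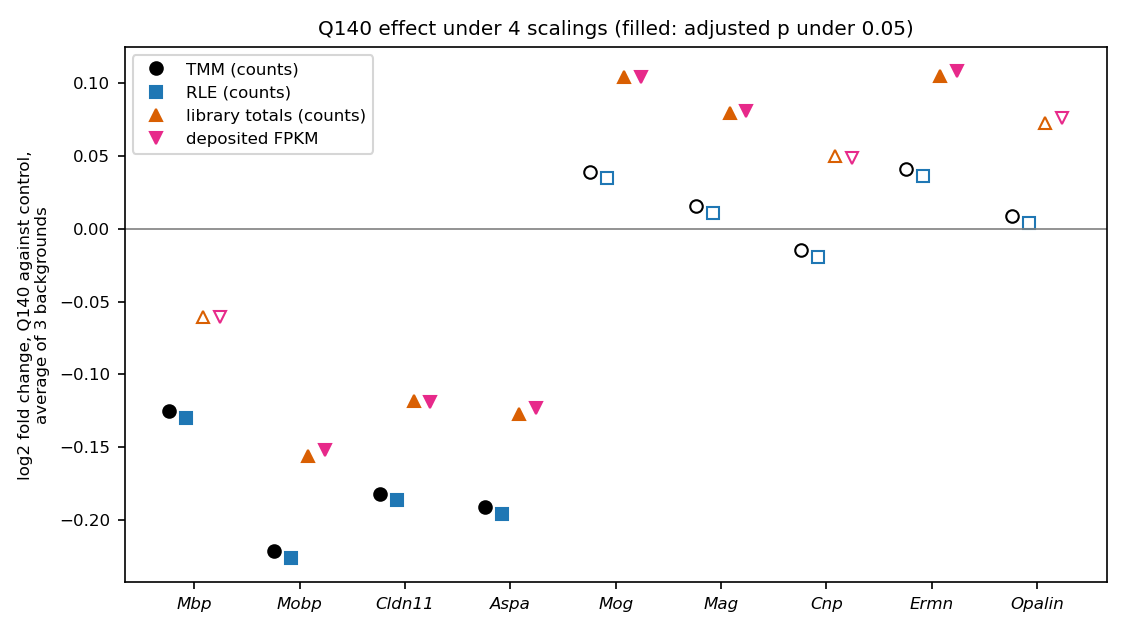
Averaged log2 fold change with Q140 (vertical axis) of each gene under 4 scalings (symbols); filled symbols passed at an adjusted p under 0.05. Each gene moves up with total counts or FPKM, which share the library total as their scale. A change of scale moves all genes of a library alike, so the order of the 4 genes on the left and the 5 on the right is not tested by it.

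A ratio between members within a library does not depend on scaling, so the split was also examined as ratios. The log2 ratio of Mobp to Mog was 4.12 to 4.44 in wild type and 3.99 to 4.31 in Q140 mice, and it fell by 0.18 (exact two-sided permutation p = 0.00855, n = 8 and 8). On Ccdc82+/- it was 4.17 to 4.33 without and 3.85 to 4.15 with Q140, with no overlap, and fell by 0.27 (exact permutation p = 0.000155, n = 8 and 8, the smallest this design can give). On Ccdc82-/- it was 4.18 to 4.46 without and 3.83 to 4.10 with Q140, again with no overlap, and fell by 0.33 (exact permutation p = 0.000311, n = 7 and 8, likewise the smallest possible). Mobp was thus lower relative to Mog in Q140 mice on each background. Adjusted over 108 ratio tests, from 36 pairs on 3 backgrounds, these values were 0.0225, 0.0021 and 0.0021. The same was seen for Cldn11 relative to Mog, which fell by 0.22, 0.21 and 0.24 (exact permutation p = 0.000311, 0.000155 and 0.000622, n = 7 to 8). Mbp to Mag, the pair of the most abundant gene with the inner adhesion gene, stood at -0.12, -0.15 and -0.15 (exact permutation p = 0.000155, 0.000932 and 0.000311, n = 7 to 8).

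In all, 47 of the 108 ratio tests passed after adjustment, 15, 17 and 15 on the 3 backgrounds. Ratios between genes outside the set were not tested. Of all genes, 34.7%, 35.0% and 33.2% passed the Q140 comparison on these backgrounds, so nothing particular to the set is read from the number of ratios. Of the 20 pairs that set Mbp, Mobp, Cldn11 or Aspa against Mog, Mag, Cnp, Ermn or Opalin, 14 passed on each background. Of the 6 pairs among the first 4 genes 1, 2 and 1 passed, and of the 10 pairs among the other 5 genes 0, 1 and 0. The genes were divided by their Q140 difference in these data, so the direction of the 20 differences follows from the division, and these counts are a description. The ratio tests were added after the values had been seen.

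**Figure D4:**
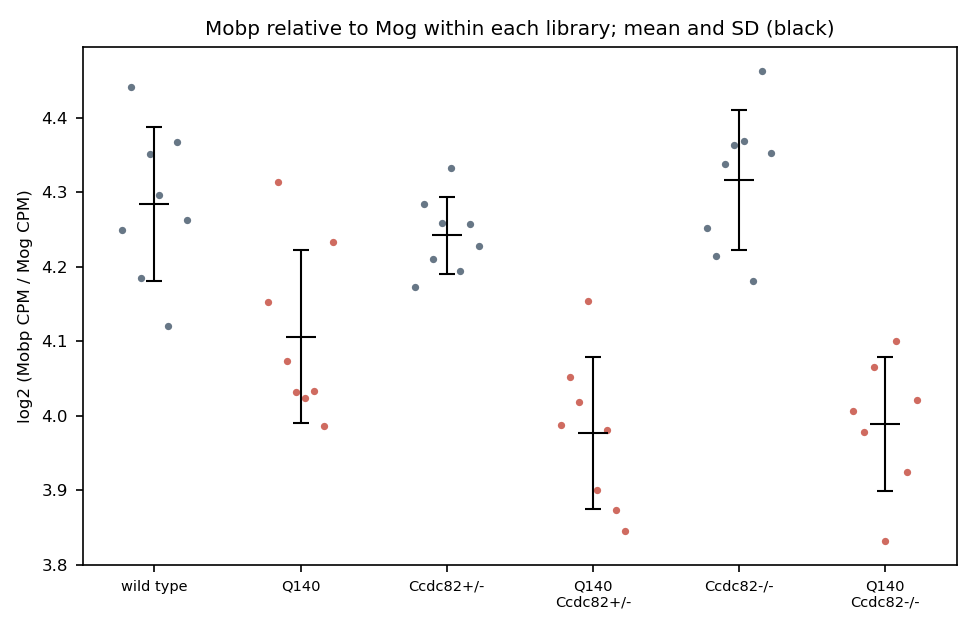
Log2 ratio of Mobp to Mog CPM (vertical axis, not from 0) in each library, by genotype group; points are libraries (grey without Q140, red with Q140), and black bars are the mean and SD. On the Ccdc82+/- background Q140 libraries reach at most 4.15 and controls start at 4.17, and on Ccdc82-/- they reach at most 4.10 and controls start at 4.18.

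Other cell types' markers also differed with Q140 on the same averaged comparison, in which 54.3% of all genes passed, 25.5% lower and 28.8% higher. The values below rest on trimmed-mean scaling and were not repeated with total counts. Of 15 medium spiny neuron genes 14 fell and 1 rose, with a median log2 change of -0.61. All 10 microglia genes fell, with a median of -0.14, as did 9 of 10 endothelial and mural genes, with a median of -0.17. Of 12 astrocyte genes 6 fell and 1 rose, and their summed level was 4770 to 5170 CPM in wild type and 4290 to 4680 CPM in Q140 mice. The summed microglia level was 476 to 511 CPM in wild type and 450 to 487 CPM in Q140. Of 9 choroid plexus genes tested 2 fell and 1 rose. By background, 0 fell against wild type, 0 on Ccdc82+/- and 5 on Ccdc82-/-. The libraries high in these genes, wild type male 1 and Ccdc82-/- male 1, are both controls. Of 12 cortical excitatory neuron genes 3 rose and 2 fell, with a median of -0.066, while their summed level had medians of 168, 174 and 169 CPM in the 3 groups without Q140 and 184, 187 and 189 CPM in the matching Q140 groups. Within that list Lamp5 had a median of 36.3 FPKM, and the next, Rasgrf2, 3.66 FPKM. Of 6 thalamic and pallidal neuron genes tested 1 rose and 0 fell, and their summed level had medians of 47.3 to 48.5 CPM without and 48.8 to 49.7 CPM with Q140. Leaving the choroid plexus list aside, marker lists of other cell types thus moved with Q140 in both directions. Their part in the member results was not tested. Without the 2 libraries high in choroid plexus genes the 4 averaged calls remained, while Cldn11 in Q140 against wild type (edgeR adjusted p = 0.0803) and Aspa on Ccdc82-/- (0.0514) did not pass. Some genes that define neighbouring regions were close to 0. Medians were 0.108 FPKM for the cortical gene Tbr1, and 0.0071 and 0.035 FPKM for the thalamic genes Lhx9 and Slc17a6. Others of the same lists were higher, with medians of 4.89 FPKM for Lhx6, 1.82 for Prkcd, 1.44 for Cux2 and 1.4 for Rorb. How much neighbouring tissue the samples held was not tested.

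No member passed in any comparison of Ccdc82 genotypes by the edgeR test. In mice without Q140, the log2 fold changes of Ccdc82+/- against wild type ran from -0.094 for Ermn to 0.023 for Opalin, and their 95% intervals lay within -0.26 to 0.21. For Ccdc82-/- against wild type all 9 values were above 0, from 0.030 for Aspa to 0.11 for Mbp, with intervals within -0.13 to 0.27. Mbp had a median of 3525 CPM in Ccdc82-/- and 3231 CPM in wild type mice, and its unadjusted p was 0.0475 (edgeR adjusted p of 1). All 8 Ccdc82-/- libraries lay above the wild type median for Cnp, but the groups overlapped. Within Q140 mice the values for Ccdc82+/- ran from -0.13 for Mobp to 0.16 for Aspa (unadjusted p = 0.026, edgeR adjusted p = 0.858), and all 8 Q140 Ccdc82+/- libraries lay above the Q140 median for Aspa. For Ccdc82-/- within Q140 they ran from -0.12 for Mobp to 0.13 for Aspa. Each of these comparisons called 1 of 19193 genes (0.00521%) and 0 members, and DESeq2 and voom also called 0. At an unadjusted edgeR p under 0.05 there was 1 member for Ccdc82-/- without Q140 (Mbp) and 1 for Ccdc82+/- within Q140 (Aspa), and 0 in the other 2 comparisons. They share groups with the Q140 comparisons and are not independent of them.

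Whether the Q140 difference itself depended on Ccdc82 was tested by interaction terms, and 0 of 9 members passed. In edgeR, 0 of 19193 genes (0%) passed for either interaction, with 1011 genes under an unadjusted p of 0.05 for Ccdc82+/- and 826 for Ccdc82-/-. DESeq2 and voom called 0 members as well, and Mobp with Ccdc82-/- was the 1 member with an unadjusted edgeR p under 0.05. The Q140 difference of Mobp was more negative on Ccdc82-/- than on the intact background, by a log2 value of -0.22 ± 0.10 (unadjusted p = 0.033, edgeR adjusted p = 0.998). For Mbp the difference between these differences was -0.15 ± 0.076 (adjusted p = 0.998), with an interval of -0.31 to 0.0018. So the larger number of members called on Ccdc82-/- is not shown to be a different response. The 95% half-widths of the interaction with Ccdc82-/- were 0.146 to 0.265, so a change in the Q140 difference of that size could be missed.

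No member passed between females and males by the edgeR test, where 1664 of all genes (8.67%, 4.03% lower and 4.64% higher in females) did. Opalin came closest, lower in females at a log2 value of -0.15 ± 0.053 (unadjusted p = 0.00848, edgeR adjusted p = 0.0728). DESeq2 and voom with quality weights each called 1 member, lower in females. For the other 8 genes the difference lay between -0.042 for Cnp and 0.084 for Ermn. When each sex was fitted alone, 3 members were lower with averaged Q140 in females and 4 in males, Mbp at -0.13 in females missing the threshold (adjusted p = 0.0569). Whether the Q140 difference depends on sex was not tested.

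Other genes of myelin and of the lineage were taken from lists by function. In each list the genes with the smallest p in the averaged Q140 comparison are named. Over all genes 54.3% passed in that comparison, 25.5% lower and 28.8% higher, and nothing particular to these lists is read from their counts. Values of the lists, here and in the next paragraph, rest on trimmed-mean scaling and were not repeated with total counts. Of 16 further myelin membrane and junction genes 7 fell, 0 rose and 9 did not pass, with a median of -0.086. Gpm6b, a membrane glycoprotein gene that neurons and astrocytes also express, stood at -0.40 ± 0.016, and the peripheral myelin gene Pmp22 at -0.28 ± 0.036. Of 10 myelin lipid synthesis genes 5 fell and 1 rose, with a median of -0.093. Fa2h, which adds the hydroxyl group of myelin galactolipids, stood at -0.25 ± 0.043, and Ugt8a, which makes galactosylceramide, at -0.24 ± 0.053. The ceramide synthase gene Cers2 was higher, at 0.10 ± 0.024. Of 20 other genes of mature oligodendrocytes 7 fell and 4 rose, with Car2, a carbonic anhydrase gene, at -0.32 ± 0.032, the cytokine gene Il33 at -0.20 ± 0.034 and the deacetylase gene Sirt2 at 0.081 ± 0.014.

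Transcription factor genes of the lineage moved both ways. Of 9 measured, 2 rose, 1 fell and 6 did not pass, with a median of 0.037. Zfp488 rose by 0.36 ± 0.055, Olig1 rose by 0.11 ± 0.028 and Sox8 stood at -0.15 ± 0.032. Myrf, whose product drives myelin genes, stood at -0.0040 ± 0.036 and Sox10 at -0.071 ± 0.044, and neither passed (edgeR adjusted p = 0.936 and 0.174). Of 7 measured genes of premyelinating cells Enpp6 rose by 0.32 ± 0.037, Itpr2 stood at -0.10 ± 0.020 and passed, and Gpr17, at 0.061 ± 0.043, did not. Of 10 precursor genes 6 fell and 1 rose, with a median of -0.084. Cacng4, an AMPA receptor auxiliary subunit gene that neurons also express, stood at -0.40 ± 0.026, the proteoglycan gene Vcan at -0.19 ± 0.050 and Lhfpl3 at 0.19 ± 0.032. Pdgfra, the receptor gene that defines precursors, stood at -0.014 ± 0.021 and did not pass.

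Between mice of the same group and sex, the members varied together. Over the 47 libraries, Pearson's r of the residual log2 levels between 2 members had a median of 0.665 over 36 pairs, and Spearman's rho a median of 0.608. The highest was between Mbp and Cldn11, with r = 0.903 and rho = 0.874 (permutation p = 1e-05 each, the smallest 100000 permutations can give). Mobp and Aspa, both lower with Q140, had the lowest r among pairs without Opalin, at 0.299. Opalin stood apart, with r of 0.005 with Ermn, 0.209 with Cldn11 and 0.596 with Cnp at most. Of the 36 pairs 34 passed at an adjusted p under 0.05 by Pearson's r and 33 by Spearman's rho. Pairs of genes outside the set were not tested, so nothing particular to the set is read from these counts. For each pair, r was also taken without the 2 libraries farthest from the median of the pair's first-listed gene. It then ranged from -0.0963 to 0.871, with a median of 0.566. With the plate column removed, r ranged from -0.0717 to 0.905, with a median of 0.635. Each member's r with the mean of the other 8 ran from 0.424 for Opalin to 0.938 for Mbp. All values share the scaling of their library.

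**Figure D5:**
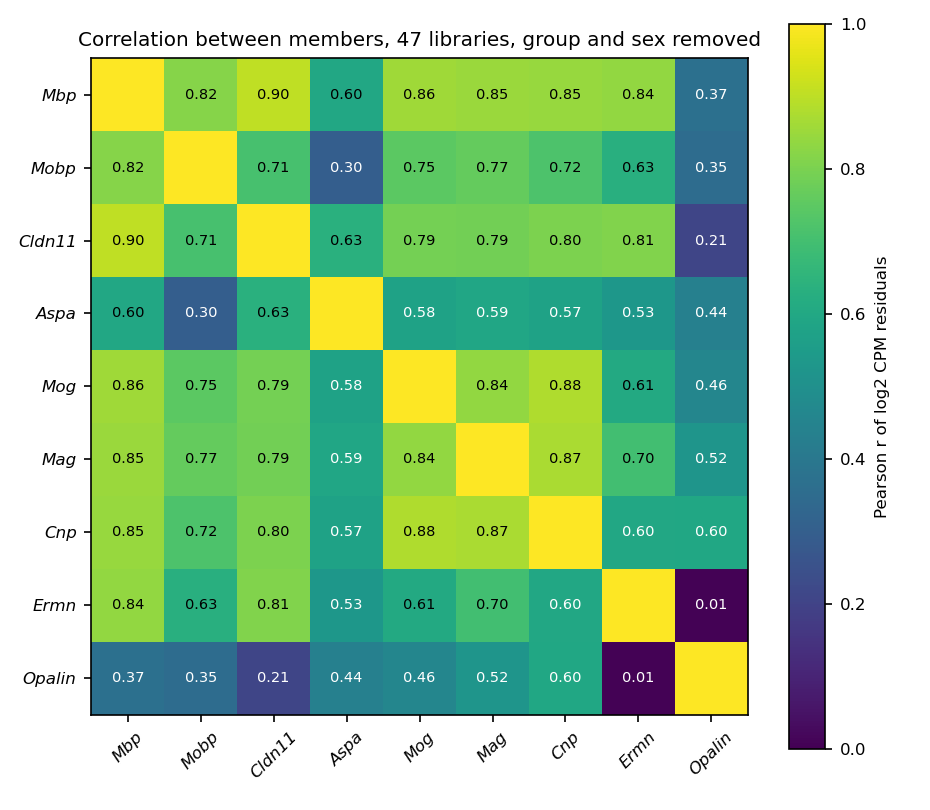
Pearson's r between residual log2 CPM of each pair of members over 47 libraries, with group and sex removed; colour and printed value give r. The first row runs from 0.37 with Opalin to 0.90 with Cldn11, and the Opalin row holds the darkest colours, down to 0.01 with Ermn.

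Of the 10 genes outside the set whose residuals followed the members' mean most closely, 5 came from the lists of other myelin and mature oligodendrocyte genes. Among 13884 genes ranked over the 47 libraries these included Plekhb1 with r = 0.926, Tmem88b with 0.923, Tmbim1 with 0.895 and Gatm with 0.893. Trf, the transferrin gene, followed with 0.887, then Tspan2 with 0.884, Prr18 with 0.872, Fnbp1 with 0.867 and Csrp1 with 0.866. Some of these genes passed with Q140 and others did not. Tspan2 was lower, at an averaged log2 fold change of -0.20 ± 0.030 (edgeR adjusted p = 1.29e-07), as was Prr18 at -0.18 ± 0.037. Plekhb1, at -0.0052 ± 0.029, Tmem88b, at 0.061 ± 0.037, and Trf, at -0.0091 ± 0.039, did not pass. Genes that vary together between mice of a group thus differed in their Q140 values. By lists, the mean of other myelin genes had r = 0.961 with the members' mean, astrocyte genes 0.647, and thalamic and pallidal neuron genes 0.518. Microglia genes had 0.511, precursor genes 0.448 and medium spiny neuron genes -0.187 (a description over 47 libraries that share their scaling). The thalamic and pallidal list holds Tcf7l2, which is also in the list of oligodendrocyte transcription factor genes.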

How the data were processed

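RNA from striatum of 47 mice was sequenced as stranded TruSeq libraries, per the labels' protocols. The deposited table of raw counts per gene was made by the authors with STAR 2.7.5c, SAMtools 1.10 and HTSeq 0.12.3 on GRCm38 (mm10), per the submitters' processing notes. The strand setting and annotation release are not given in the sources used here. The deposited FPKM table was derived by the authors from the same counts: each value equalled the count over the library total and a constant per gene, within a relative 1e-09, for all 33998 genes with a count. Groups, sexes and replicate numbers came from the labels.

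The tests ran in edgeR 4.0.16 (R 4.3.3): filterByExpr on the 6 groups (19193 of 48795 genes kept), TMM scaling, estimateDisp, a robust quasi-likelihood fit with group and sex over all libraries, and glmQLFTest with Benjamini-Hochberg adjustment over all genes tested, called at an adjusted p under 0.05. The averaged Q140 comparison is the mean of the Q140 differences on 3 Ccdc82 backgrounds. Precision came from 41.3 to 61.7 M counts per library and the spread between mice, and the half-width of a 95% interval for a member was 0.101 to 0.19 for a single Q140 comparison. Intervals and p-values treat the mice of a group as independent. Some libraries share a number in their names, whose meaning is not given in the sources used here. The consensus correlation within this number was 0.147, and the main fit does not model it. The test was checked on simulated counts.

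The 9 members, the gene lists and the comparisons were chosen with earlier results of these data known. Named genes were the 9 members, up to 3 genes per lineage list with the smallest p in the averaged Q140 comparison, and the 10 genes (mean log2 CPM not under 1) most correlated with the members' mean. A few genes that this rule selects are not reported here. Myrf, Sox10 and Pdgfra were also given as reference genes of their lists, and 1 listed gene had no row under its name. Members were compared within libraries by exact permutation tests of log2 ratios. Correlations used residuals after group and sex, with 100000 permutations. Alternatives were RLE factors, total counts, limma 3.58.1 (voom, FPKM on a log2 scale with pseudocounts 0.1 and 1), DESeq2 1.42.0, no filter, no sex term, a replicate block, plate column, library-name number, single sexes, only the groups compared, and libraries left out. The total-count scaling and the ratio tests were chosen after seeing the data. Promoter words were searched on both strands of RefSeq windows.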

Additional observations from a re-analysis of the deposited data

Results flagged for a closer look

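Within each genotype group the highest and the lowest library of each member were examined for a gap to the nearest other library that is large beside the group's range. Of 54 groups of libraries tested, 5 showed such a gap, where chance gives about 1 in 20. All 5 were the same library, female 4 of the Ccdc82+/- group, on the high side. It held 3767 CPM of Mbp, where the next library of its group held 3243, and 1317 CPM of Mobp, where the next held 1059. It held 170.8 CPM of Cldn11, next to 146.3, and 68.78 CPM of Mog, next to 56.3. Ermn stood at 98.13 CPM in it, next to 81.33. Because the 9 genes vary together between mice, these 5 values are not independent of each other. Without this library Mobp on the Ccdc82+/- background did not pass (edgeR adjusted p = 0.107) and Mog passed upward (0.0418). What sets this library apart was not tested.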

How the results depend on the processing

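The 4 averaged Q140 calls (Mobp, Cldn11, Aspa and Mbp, all lower) kept their direction under every alternative run, and they passed in all but 5 of them for Mbp and in all for the other 3 genes. Mbp missed with total counts (adjusted p = 0.0906), with FPKM at pseudocounts of 0.1 (0.0971) and 1 (0.0976) or unfiltered (0.151), and in females (0.0569). No member reversed a called direction. The counts on single backgrounds moved more. In Q140 against wild type 2 members were called, but 1 with total counts, with no low-count filter, in males, with only the groups compared, without the choroid-high libraries and with each FPKM setting, and 0 in females. On Ccdc82+/- 1 was called, but 3, all higher, with total counts and with FPKM at either pseudocount, 2 with DESeq2, with only the groups compared and with the library-name number as a random factor, and 0 with the plate column, in females and with unfiltered FPKM. On Ccdc82-/- 4 were called, but 1 in females and 3 with total counts, no low-count filter, males, either voom fit, each FPKM setting and without the choroid-high libraries. Between the sexes 0 were called, but 1 with voom with quality weights and with DESeq2. With the replicate number as a block 2 were called on Ccdc82+/- (Cldn11 beside Mobp), 3 on Ccdc82-/- and 2 against wild type. Same-numbered libraries had a median correlation of -0.00813 over 115 pairs, with a range of -0.438 to 0.553. Of 47 libraries 15 were closest to their own number. These values gave no sign that the numbers pair mice, but they cannot exclude it. Leaving out 1 library at a time gave 1 to 2 calls against wild type, 0 to 2 on Ccdc82+/- and 3 to 4 on Ccdc82-/-. The cause of these changes was not tested. Depth limits none of the 9 genes, since the lowest count was 769, and the spread between mice sets the error. Total counts and voom with a random factor assume other things about the libraries than the main comparison, and no setting here shows which scale is right.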
